A study of Mus musculus with 15 samples.

Results

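Livers of mice treated with the hormone GDF15 were compared with livers of mice treated with vehicle, gene by gene, in 10 of the 15 RNA sequencing libraries of the series: 5 named GDF15 and 5 named Vehicle. Libraries were taken into the comparison by the treatment written in their column names. All animals were wild type, had been switched at 8 weeks of age to a diet that produces metabolic dysfunction-associated steatohepatitis (MASH), and lived at about 29 °C from then on. They were assigned at random to groups of like body weight and composition and kept 1 to a cage. GDF15 mice were injected under the skin each morning, early in the light phase, with recombinant GDF15 at 1 nmol/kg. The other 5 libraries, named PairFed, came from mice whose food was limited to what the GDF15 mice had eaten on the previous day. They were not 1 of the 2 groups compared, and their levels are given beside these groups. The test was fitted to all 15 libraries, so PairFed also entered the filter on low counts, the scaling and the estimate of the spread. Because GDF15 mice could eat less than Vehicle mice, the comparison holds the whole effect of the treatment, lower food intake included. Sex, strain, the number of treatment days and the hour of sampling were not given in the sources used here. The labels list each liver as a sample of its own without saying in words that each is a separate animal, so p-values measure the spread between these samples.

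GDF15 is a stress hormone of the TGF-beta superfamily. Its receptor, GFRAL with the co-receptor RET, sits on neurons of the hindbrain, where it lowers food intake and can raise the output of the adrenal glands; adult hepatocytes are not known to carry GFRAL. The liver may therefore see the hormone mainly through food supply, nerves and other hormones, which was not tested here. Glucocorticoids, the steroid hormones of the adrenal cortex, bind a receptor in hepatocytes that switches on amino acid breakdown and glucose production and restrains inflammatory genes. In MASH the liver is fatty, and immune cells gather among the hepatocytes.

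Library totals were 8551557 to 10914914 counts for GDF15, 9228127 to 12994187 for Vehicle and 10133289 to 12933324 for PairFed. Levels are given as CPM, a gene's counts scaled to a common library size, after TMM scaling (trimmed mean of M-values), whose factors lay between 1.005 and 1.086 in Vehicle and between 0.916 and 1.02 in GDF15. Alb, the gene of serum albumin and the defining product of hepatocytes, took 6.495% to 7.692% of counts in Vehicle and 6.94% to 8.30% in GDF15. The first principal component of the 10 libraries held 33.0% of the variance, and GDF15 1 lay farthest out on it, at 43.2. As the hormone was injected, hepatic Gdf15 RNA is no check of the labels. It stood at 48, 187, 55, 65.3 and 62.2 CPM in Vehicle 1 to 5 and at 259, 134, 103, 91.7 and 96 CPM in GDF15 1 to 5. Vehicle 2 and GDF15 1 were the high libraries of their groups, the groups overlapped, and the difference was not past the threshold (log2 fold change 0.71 ± 0.50, SE, adjusted p = 0.524).

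Of 12274 genes tested with edgeR's quasi-likelihood test, 356 (2.90%) passed an adjusted p of 0.05; 248 rose (2.02%) and 108 fell (0.880%). A gene that passed is called changed here, and the percentages are the background against which counts in gene lists are read. Lists and their members were chosen with earlier results of these data known, so their counts and ranks are descriptions and no test. The rises were moderate: their median was 0.55 on the log2 scale, or 1.46-fold, 39 were at least 2-fold and 137 were under 1.5-fold. The falls had a median of -0.60, or 1.52-fold, with 21 of at least 2-fold and 51 under 1.5-fold. The groups did not overlap in 184 of the genes that rose and in 82 of those that fell; over all tested genes this was so for 490, or 3.99%. The median over all tested genes was -0.005, and 48.9% of them were above 0.

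Genes that rose and genes that fell differed in how strongly the liver expresses them. When tested genes were split by level into 3 equal sets, 193 of 4091 rose (4.72%) and 25 fell (0.611%) in the set with the highest levels. In the set with the lowest levels 13 of 4092 rose (0.318%) and 45 fell (1.1%). The median Vehicle level was 55.5 CPM for genes that rose and 15.8 CPM for genes that fell. Together the 248 genes took 4.38% to 4.92% of counts in Vehicle, 5.17% to 5.98% in PairFed and 5.81% to 7.35% in GDF15, as a description of genes chosen by this same difference. The 108 genes took 0.639% to 0.707% in Vehicle, 0.531% to 0.571% in PairFed and 0.429% to 0.526% in GDF15.

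**Figure D1:**
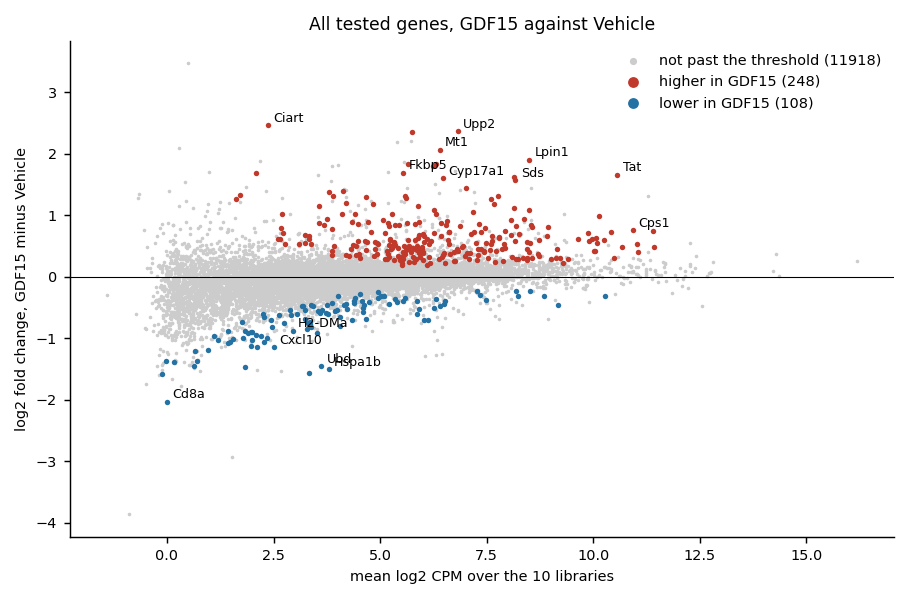
Difference between GDF15 and Vehicle (vertical axis, log2 fold change) against the mean level over the 10 libraries (horizontal axis, mean log2 CPM) for the 12274 tested genes, with 248 genes that rose, 108 that fell and 11918 others in separate colours. The genes that rose lie mostly at high levels and those that fell at lower ones.

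The counts depended on single libraries. The number that rose was 122 without Vehicle 1, 136 without Vehicle 3, 133 without GDF15 1, 109 without GDF15 2 and 332 without GDF15 3. The number that fell was 30, 42, 39 and 25 without the first 4 of these, 69 without GDF15 4 and 144 without GDF15 3. With upper-quartile scaling in place of TMM the share of rises among changed genes went from 69.7% to 58.7%. In a fit of only the 2 groups compared, without PairFed, 147 genes rose and 47 fell. Where the text says that a call was "lost without" a library, the gene's adjusted p over all genes was above 0.05 in the refit that left that library out, and the highest such value follows. Losses under other settings are not marked beside a gene. Beside the count of a gene list, a number "called without" a library is the number of its members past the threshold in that refit, given where it differs from the count by over 1.5 times.

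Genes outside the classical lists of liver metabolism were among those with the smallest adjusted p-values by edgeR's test. Fkbp5, Cps1 and Sds, described further on, also had low values, below several of those in the next paragraph. Mknk2, a kinase that phosphorylates the translation initiation factor eIF4E, stood at 209, 231, 193, 237 and 222 CPM in Vehicle 1 to 5 and at 382, 435, 320.4, 394 and 403 CPM in GDF15 1 to 5. The lowest GDF15 library, GDF15 3, was above the highest Vehicle library, and the rise was 1.77-fold (log2 fold change 0.82 ± 0.08, SE, adjusted p = 6.33e-05). Gin1, a gene derived from the integrase of a retrotransposon, whose function is little known, stood at 9.2, 8.35, 8.11, 7.98 and 9.31 CPM in Vehicle and at 16.1, 16.6, 14.8, 15 and 16.1 CPM in GDF15. Both groups were tight, the groups did not overlap, and Gin1 rose 1.83-fold (log2 fold change 0.87 ± 0.09, SE, adjusted p = 6.33e-05). Rhobtb1, an atypical small GTPase, stood at 61.2, 58.6, 71, 63 and 67.6 CPM in Vehicle and at 104, 144, 94, 122 and 129 CPM in GDF15. GDF15 2 was its highest library and GDF15 3 its lowest, still above every Vehicle library (log2 fold change 0.88 ± 0.09, SE, adjusted p = 6.95e-05).

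Other genes with low adjusted p-values rose by similar amounts. Zfp385b, a zinc finger gene, went from 11.4–17.7 CPM in Vehicle to 26.6–30.6 CPM in GDF15 (log2 fold change 0.89 ± 0.10, SE, adjusted p = 0.000209). Fam214a went from 43.3–66.3 CPM in Vehicle to 89.5–138 CPM in GDF15 (log2 fold change 1.02 ± 0.12, SE, adjusted p = 0.000232). Klhl3, the adaptor through which a cullin-3 ubiquitin ligase removes WNK kinases, went from 8.02–10.7 CPM in Vehicle to 13.7–21.7 CPM in GDF15 (log2 fold change 0.85 ± 0.11, SE, adjusted p = 0.000528). Neither group overlapped the other in any of these genes. Cdip1, a p53 target that promotes cell death, went from 67.3–80.6 CPM in Vehicle to 105–148 CPM in GDF15 (log2 fold change 0.72 ± 0.09, SE, adjusted p = 0.000322). Klf13, a Krüppel-like transcription factor, went from 35.9–72.6 CPM in Vehicle to 90.1–136 CPM in GDF15 (log2 fold change 1.09 ± 0.15, SE, adjusted p = 0.00154). Fbxo31, a substrate adaptor of a ubiquitin ligase, went from 22.9–40.5 CPM in Vehicle to 48.6–99.2 CPM in GDF15 (log2 fold change 1.28 ± 0.20, SE, adjusted p = 0.00323). In all 3 the groups were apart, and Vehicle 3 was the lowest of the 10 libraries.

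Among the lists, chosen with earlier results of these data known, direct targets of the glucocorticoid receptor held the most genes that rose. Of 29 tested members 13 rose and none fell, against 2.02% of all genes, and the list median was 1.02 log2 against -0.005 over all genes. 26 of the 29 were above 0. The number called ranged from 8, without Vehicle 1, to 19 over the 10 refits that each left out 1 library. Summed over the list, levels were 3221 to 6399 CPM in Vehicle and 6999 to 15707 CPM in GDF15.

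Fkbp5, a co-chaperone that lowers the receptor's affinity for its hormone, stood at 28, 26.4, 18.9, 29.7 and 28 CPM in Vehicle 1 to 5 and at 84.2, 109.8, 64.2, 69.5 and 97.9 CPM in GDF15 1 to 5. All GDF15 libraries lay far above Vehicle, and Fkbp5 rose 3.24-fold (log2 fold change 1.69 ± 0.16, SE, adjusted p = 6.95e-05). Zbtb16, a transcription factor, stood at 30.2, 21.1, 15, 33 and 38.1 CPM in Vehicle and at 90.5, 107, 86.3, 105 and 102 CPM in GDF15. The GDF15 libraries were closely spaced, above a more scattered Vehicle group (log2 fold change 1.83 ± 0.25, SE, adjusted p = 0.00228). Lpin1, the phosphatase that makes diacylglycerol and also a co-activator of fasting genes, stood at 246, 190.2, 193, 161 and 166 CPM in Vehicle and at 737, 976, 507, 717 and 639 CPM in GDF15. GDF15 2 was the highest and GDF15 3 the lowest of the treated group, and the rise was 3.74-fold (log2 fold change 1.90 ± 0.27, SE, adjusted p = 0.00234).

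Tat, which opens the breakdown of tyrosine, stood at 811, 1163, 709, 641 and 1120.2 CPM in Vehicle and at 3754, 3941, 1494, 2388 and 2506 CPM in GDF15. GDF15 1 and 2 stood well above GDF15 3, but the groups did not overlap (log2 fold change 1.66 ± 0.32, SE, adjusted p = 0.0167, lost without Vehicle 1 or 3 at up to 0.0531). Cebpb, a transcription factor of the acute response and of fasting, went from 99.6–179.6 CPM in Vehicle to 199–477 CPM in GDF15 (log2 fold change 1.26 ± 0.23, SE, adjusted p = 0.0125). Tsc22d3, the leucine zipper protein GILZ that restrains inflammation, went from 63–83.5 CPM in Vehicle to 100.3–185 CPM in GDF15 (log2 fold change 0.74 ± 0.15, SE, adjusted p = 0.0138). Klf9, a transcription factor that responds to stress hormones, went from 74.7–158 CPM in Vehicle to 156–211 CPM in GDF15, with the groups overlapping at Vehicle 4 and GDF15 3 (log2 fold change 0.73 ± 0.15, SE, adjusted p = 0.018, lost without Vehicle 1 or GDF15 2 at up to 0.0593). Mfsd2a, a carrier of lysophosphatidylcholine, went from 97–200.4 CPM in Vehicle to 232–431 CPM in GDF15 (log2 fold change 1.32 ± 0.22, SE, adjusted p = 0.00573). Errfi1, an inhibitor of the EGF receptor, went from 601–969 CPM in Vehicle to 896–2075 CPM in GDF15, and GDF15 3 lay within the Vehicle range (log2 fold change 1.00 ± 0.21, SE, adjusted p = 0.0239, lost without Vehicle 1 or 3 or GDF15 1 or 2 at up to 0.0695).

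Mt1 and Mt2, the metallothioneins that bind zinc and copper, had the largest rises among the members that passed, with wide scatter. Mt2 stood at 16.2, 16.6, 14.7, 50.5 and 40 CPM in Vehicle 1 to 5 and at 171, 211, 30.3, 166 and 133 CPM in GDF15 1 to 5. GDF15 3 lay inside the Vehicle range while the other 4 treated libraries were far above it (log2 fold change 2.35 ± 0.49, SE, adjusted p = 0.0253, lost without Vehicle 1 to 3 or GDF15 1 or 2 at up to 0.075). Mt1 showed the same layout, from 26.1–72.5 CPM in Vehicle to 59.3–284 CPM in GDF15 (log2 fold change 2.06 ± 0.39, SE, adjusted p = 0.0167, lost without Vehicle 1 at 0.0531). The genes are neighbours of similar sequence, so their counts may share reads. Pck1, the enzyme that commits carbon to glucose production, is a member that did not pass: it stood at 1511, 2084, 731, 1399 and 2763 CPM in Vehicle and at 5924, 5003, 2344, 3394 and 4355 CPM in GDF15, with Vehicle 5 above GDF15 3 (log2 fold change 1.31 ± 0.33, SE, adjusted p = 0.0539).

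**Figure D2:**
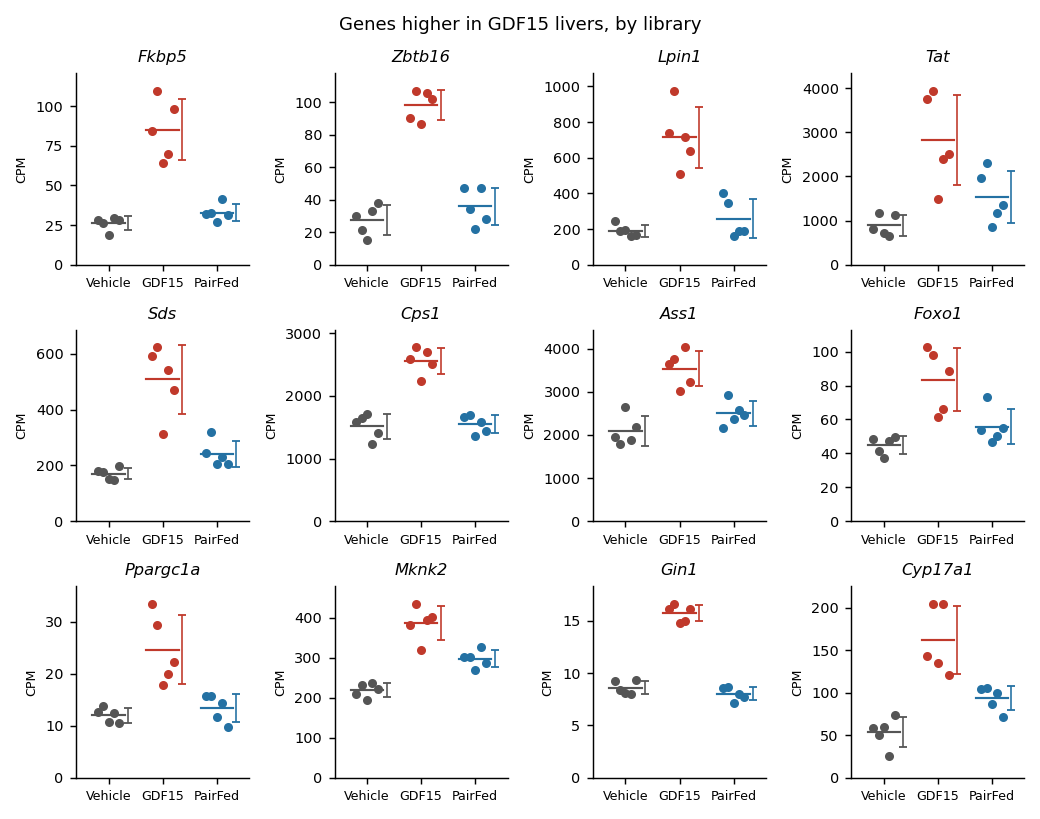
CPM of 12 genes that rose (one panel each: Fkbp5, Zbtb16, Lpin1, Tat, Sds, Cps1, Ass1, Foxo1, Ppargc1a, Mknk2, Gin1 and Cyp17a1) in each Vehicle, GDF15 and PairFed library, with bars at the group mean and error bars of 1 SD (n = 5). In every panel the lowest GDF15 point lies above the highest Vehicle point.

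Genes that handle steroids in hepatocytes had a smaller median than the targets. Of 25 tested genes of nuclear receptors and steroid handling 3 rose and none fell, with a median of 0.23 (6 called without GDF15 3). Nr1i2, the pregnane X receptor that senses steroids and drugs, went from 64.5–93 CPM in Vehicle to 95.9–139 CPM in GDF15 (log2 fold change 0.54 ± 0.11, SE, adjusted p = 0.0121). Akr1d1, which reduces steroids and precursors of bile acids, went from 120.3–170.1 CPM in Vehicle to 162–225 CPM in GDF15, and the groups overlapped (log2 fold change 0.45 ± 0.11, SE, adjusted p = 0.0427, lost without Vehicle 1, 3, 4 or 5 or GDF15 1, 2 or 4 at up to 0.132). Also among them was Ppargc1a, the co-activator PGC-1alpha that drives mitochondrial and gluconeogenic genes, which stood at 12.7, 13.9, 10.7, 12.5 and 10.5 CPM in Vehicle and at 33.5, 29.5, 17.8, 20 and 22.3 CPM in GDF15. Its groups were apart, with GDF15 1 and 2 the highest (log2 fold change 1.02 ± 0.17, SE, adjusted p = 0.00371).

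The insulin pathway and its forkhead factors were compared next, because fasting lowers insulin. Of 20 tested members 2 rose, both FOXO factors, which insulin keeps out of the nucleus; the median was 0.14. Foxo1 stood at 48.7, 41.5, 37.4, 47.3 and 49.6 CPM in Vehicle and at 103, 98, 61.5, 66.1 and 88.4 CPM in GDF15. The lowest treated libraries, GDF15 3 and 4, were still above all of Vehicle (log2 fold change 0.89 ± 0.15, SE, adjusted p = 0.00573). Foxo3 went from 39.5–67.6 CPM in Vehicle to 74–92.2 CPM in GDF15 (log2 fold change 0.67 ± 0.11, SE, adjusted p = 0.00259). Irs2, the adaptor of the insulin receptor that rises in fasting, was spread over 19.4–69 CPM in Vehicle and 19–157 CPM in GDF15 and did not pass (log2 fold change 0.94 ± 0.57, SE, adjusted p = 0.449).

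Of 17 tested gluconeogenesis genes 4 rose (median 0.23; 2 called without Vehicle 2 or 3 or GDF15 1 or 2). The median was 0.11 without GDF15 1 and 0.14 without GDF15 2. Besides Foxo1 and Ppargc1a these were Slc37a4 and Got1. Slc37a4, the carrier of glucose 6-phosphate into the endoplasmic reticulum, went from 122–151 CPM in Vehicle to 153–217 CPM in GDF15 (log2 fold change 0.36 ± 0.08, SE, adjusted p = 0.027, lost without Vehicle 2, 3 or 5 or GDF15 1 or 2 at up to 0.0755). Got1, the cytosolic aspartate aminotransferase, stood at 160.4, 154, 188, 124 and 209.5 CPM in Vehicle and at 687, 786, 278, 485 and 342 CPM in GDF15. GDF15 1 and 2 were highest, and the groups did not overlap although the spread was wide (log2 fold change 1.63 ± 0.36, SE, adjusted p = 0.03, lost without Vehicle 1 to 4 or GDF15 1, 2 or 4 at up to 0.0863). G6pc, the last enzyme of glucose production, overlapped fully between groups at 336–885 CPM in Vehicle and 309–1138 CPM in GDF15 and did not pass (log2 fold change 0.28 ± 0.39, SE, adjusted p = 0.781).

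Of 22 tested genes of glycolysis and glycogen 3 rose (median 0.12; 0 to 1 called without Vehicle 1, 3 or 4 or GDF15 1 or 2). Pfkfb1, the liver isoform of the enzyme that sets fructose 2,6-bisphosphate, went from 43.2–51.2 CPM in Vehicle to 53.9–76.4 CPM in GDF15 (log2 fold change 0.45 ± 0.10, SE, adjusted p = 0.0239, lost without Vehicle 1 or 3 or GDF15 1 or 2 at up to 0.0844). Pfkfb3, an inducible isoform, went from 10.5–13.3 CPM in Vehicle to 14.8–53.3 CPM in GDF15, with GDF15 1 far above GDF15 3 and 4 (log2 fold change 1.40 ± 0.34, SE, adjusted p = 0.0466, lost without Vehicle 1 to 5 or GDF15 1, 2 or 5 at up to 0.107). Among secreted factors of fasting and growth 2 of 24 tested rose, Hamp2 and Fgf1, and 1 fell, Inhba (1 called without Vehicle 1 or GDF15 1 or 2). Fgf1, a fibroblast growth factor, went from 48.2–69 CPM in Vehicle to 75.1–111 CPM in GDF15 (log2 fold change 0.58 ± 0.12, SE, adjusted p = 0.0121). Inhba, a subunit of activins, went from 9.63–18.6 CPM in Vehicle to 6.31–8.96 CPM in GDF15 (log2 fold change -0.75 ± 0.20, SE, adjusted p = 0.0495, lost without Vehicle 1 to 4 or GDF15 1, 2, 4 or 5 at up to 0.132). Igfbp1, Fgf21 and Igf1, known secreted factors of the fasted or growing liver, did not pass. Igfbp1 was at 120.1–469 CPM in Vehicle and 238–1359 CPM in GDF15 (log2 fold change 1.45 ± 0.58, SE, adjusted p = 0.227). Fgf21 was at -0.70 ± 0.31 (adjusted p = 0.271), and Igf1 was at 0.14 ± 0.10 (adjusted p = 0.513).

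Among the lists, chosen with earlier results of these data known, urea cycle and ammonia genes had the highest share of rises. The cycle turns ammonia from amino acid breakdown into urea. Of 15 tested members 8 rose, none fell and all 15 were above 0, with a median of 0.52; over the left-out libraries 7 to 8 were called. Cps1, which makes carbamoyl phosphate as the entry step, stood at 1579, 1640.4, 1713, 1224 and 1414 CPM in Vehicle 1 to 5 and at 2579, 2775, 2238, 2693 and 2511 CPM in GDF15 1 to 5. Every GDF15 library was above every Vehicle library, and Cps1 rose 1.69-fold (log2 fold change 0.76 ± 0.09, SE, adjusted p = 0.000274). Ass1, which joins citrulline and aspartate, stood at 1957, 1797, 2659, 1881 and 2194 CPM in Vehicle and at 3645, 3751, 3025, 4035 and 3219.5 CPM in GDF15. Vehicle 3 and GDF15 3 came closest, without overlap (log2 fold change 0.75 ± 0.11, SE, adjusted p = 0.00154). Asl, which releases arginine, went from 261–315 CPM in Vehicle to 352–638 CPM in GDF15 (log2 fold change 0.84 ± 0.15, SE, adjusted p = 0.00645).

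The other members that rose were the arginase, the citrulline step, a glutaminase and carriers. Arg1, the arginase that frees urea, went from 726–849 CPM in Vehicle to 979–1326 CPM in GDF15 (log2 fold change 0.59 ± 0.09, SE, adjusted p = 0.00228). Otc, which makes citrulline, went from 318–369 CPM in Vehicle to 364–488 CPM in GDF15, the groups overlapping only at Vehicle 5 and GDF15 5 (log2 fold change 0.30 ± 0.08, SE, adjusted p = 0.0488, lost without Vehicle 1 to 4 or GDF15 1, 2 or 4 at up to 0.13). Slc25a15, the ornithine carrier of mitochondria, went from 201–254 CPM in Vehicle to 294–419 CPM in GDF15 (log2 fold change 0.58 ± 0.11, SE, adjusted p = 0.00677). In these genes the fold was below that of Slc7a2, a carrier of arginine and other cationic amino acids, which went from 171–287 CPM in Vehicle to 337–682 CPM in GDF15 (log2 fold change 1.09 ± 0.19, SE, adjusted p = 0.00813). Gls2, the liver glutaminase that frees ammonia from glutamine, went from 167–219 CPM in Vehicle to 256–388 CPM in GDF15 (log2 fold change 0.74 ± 0.11, SE, adjusted p = 0.00167).

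Lists for the breakdown of the carbon skeletons of amino acids held fewer rises. In the list for aromatic amino acids 6 of 17 tested members rose, all 17 were above 0 and the median was 0.32; without Vehicle 1 the number called was 3. With Tat rose Hpd, the dioxygenase that follows it on tyrosine, from 871–1205 CPM in Vehicle to 1422–2284 CPM in GDF15 (log2 fold change 0.73 ± 0.12, SE, adjusted p = 0.0028). Tdo2, which opens the ring of tryptophan, stood at 869, 956, 641, 969 and 882 CPM in Vehicle and at 1451, 1355, 1072, 1348 and 1450.2 CPM in GDF15. Vehicle 3 and GDF15 3 were each the low library of a close group (log2 fold change 0.63 ± 0.10, SE, adjusted p = 0.00228). Hgd, the next dioxygenase of the tyrosine route, went from 441–529.6 CPM in Vehicle to 553–787 CPM in GDF15 (log2 fold change 0.46 ± 0.10, SE, adjusted p = 0.018, lost without Vehicle 1 or GDF15 1 or 2 at up to 0.0569). Haao, of the tryptophan route to NAD, went from 329.9–401 CPM in Vehicle to 407–522 CPM in GDF15 (log2 fold change 0.34 ± 0.08, SE, adjusted p = 0.0353, lost without Vehicle 1, 3, 4 or 5 or GDF15 1, 2 or 4 at up to 0.118).

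Sds, the serine dehydratase that makes pyruvate from serine, stood at 181, 175, 152, 148 and 197 CPM in Vehicle 1 to 5 and at 591, 624, 314, 541 and 469.7 CPM in GDF15 1 to 5. GDF15 3 was again the lowest treated library and above every Vehicle library, and Sds rose 2.98-fold (log2 fold change 1.57 ± 0.17, SE, adjusted p = 0.000274). It and Gnmt, which uses up methyl groups on glycine, were the 2 of 17 serine, glycine and threonine genes that rose (median 0.14; 4 called without GDF15 5). Gnmt went from 603–902 CPM in Vehicle to 871–1505 CPM in GDF15, with GDF15 5 inside the Vehicle range (log2 fold change 0.71 ± 0.14, SE, adjusted p = 0.0106). Of 22 branched-chain, lysine and histidine genes 2 rose (median 0.15; 1 called without Vehicle 1, 3, 4 or 5 or GDF15 1, 2 or 4). Aass, the first enzyme of lysine breakdown, went from 180.4–219 CPM in Vehicle to 243–325 CPM in GDF15 (log2 fold change 0.54 ± 0.10, SE, adjusted p = 0.00422), and Hal, the first of histidine breakdown, from 152–207 CPM in Vehicle to 194–337 CPM in GDF15 (log2 fold change 0.63 ± 0.15, SE, adjusted p = 0.0422, lost without Vehicle 1, 3, 4 or 5 or GDF15 1, 2 or 4 at up to 0.118).

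Of 13 genes of proline breakdown and transamination 3 rose (median 0.18; 1 called without Vehicle 1 or 3 or GDF15 1, 2 or 4), namely Got1, Gpt2 and Prodh, the mitochondrial enzyme that starts proline breakdown. Prodh stood at 100.2, 117, 110.2, 156 and 109 CPM in Vehicle and at 215, 264, 191, 216 and 197 CPM in GDF15. Vehicle 4 was the highest of its group and below all of GDF15 (log2 fold change 0.87 ± 0.12, SE, adjusted p = 0.00122). Gpt2, an alanine aminotransferase, was at 0.29 ± 0.07 (adjusted p = 0.0398, lost without Vehicle 1, 3 or 4 or GDF15 1, 2, 4 or 5 at up to 0.131). In the methionine and one-carbon list 4 of 22 rose and 1 fell (median 0.21; 1 to 3 called without Vehicle 1, 3 or 4 or GDF15 1, 2 or 4). Ahcy, which clears S-adenosylhomocysteine, went from 799.6–1072 CPM in Vehicle to 1264–1759.6 CPM in GDF15 (log2 fold change 0.61 ± 0.10, SE, adjusted p = 0.00228). Mat1a, the liver's S-adenosylmethionine synthase, was at 0.48 ± 0.13 (adjusted p = 0.0486, lost without Vehicle 1 to 4 or GDF15 1, 2 or 4 at up to 0.148). Cth, which makes cysteine, was at 0.44 ± 0.10 (adjusted p = 0.0272, lost without Vehicle 1, 3 or 4 or GDF15 1, 2 or 4 at up to 0.0872), and Aldh1l1, which takes formyl groups off folate, was at 0.43 ± 0.09 (adjusted p = 0.018, lost without Vehicle 1 or GDF15 2 at up to 0.0674).

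Mthfd2, a mitochondrial folate enzyme more typical of dividing cells, was the member that fell, from 2.57–5.35 CPM in Vehicle to 1.26–2.45 CPM in GDF15 (log2 fold change -1.01 ± 0.23, SE, adjusted p = 0.0254, lost without Vehicle 1, 3 or 4 or GDF15 1, 2 or 5 at up to 0.0695). Of 24 amino acid transporters 4 rose, Slc7a2 and Slc25a15 among them (median 0.26). Slc38a4, a carrier of neutral amino acids at the hepatocyte surface, stood at 759.5, 859.8, 654, 826 and 969.6 CPM in Vehicle and at 1347, 1304, 1011, 1305 and 1288 CPM in GDF15. GDF15 3 was the low library of an otherwise close treated group (log2 fold change 0.62 ± 0.10, SE, adjusted p = 0.00228). Slc25a22, a mitochondrial glutamate carrier, went from 165–249 CPM in Vehicle to 283–486 CPM in GDF15 (log2 fold change 0.92 ± 0.16, SE, adjusted p = 0.00573). Of 21 genes of the amino acid stress response, which starvation for an amino acid switches on, 1 rose, Cebpb, and the median was 0.01 (5 called without GDF15 3).

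The lipid lists held 0 to 4 rises each and no fall. In triglyceride synthesis and lipid droplets 4 of 27 rose (median 0.09; 2 called without GDF15 2 and 7 called without GDF15 3). After Lpin1 came Lpin2, a phosphatase of the same family, from 305–472 CPM in Vehicle to 511–807 CPM in GDF15 (log2 fold change 0.82 ± 0.15, SE, adjusted p = 0.00937). Plin5, the droplet coat protein that ties droplets to mitochondria, stood at 64.3, 44.8, 57.2, 51.3 and 62.2 CPM in Vehicle and at 74.2, 93.7, 79.6, 92.1 and 89.1 CPM in GDF15. The groups were apart, with Vehicle 1 and GDF15 1 nearest (log2 fold change 0.62 ± 0.13, SE, adjusted p = 0.0145, lost without GDF15 2 at 0.0535). Dgat2, which adds the last fatty acid to triglyceride, was at 0.31 ± 0.07 (adjusted p = 0.0242, lost without Vehicle 1, 3 or 5 or GDF15 1, 2 or 4 at up to 0.0872).

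In fatty acid synthesis and desaturation 2 of 21 rose (median 0.25; 1 called without GDF15 2), the adjacent desaturase genes of polyunsaturated fatty acids. The list median was 0.11 without GDF15 4, 0.15 without Vehicle 4 and 0.45 without Vehicle 3. Fads1 went from 773–1084 CPM in Vehicle to 1140.0–1482 CPM in GDF15 (log2 fold change 0.55 ± 0.09, SE, adjusted p = 0.00228) and Fads2 from 1115–1711 CPM in Vehicle to 1720.1–2193 CPM in GDF15 (log2 fold change 0.49 ± 0.10, SE, adjusted p = 0.0136, lost without GDF15 2 at 0.0557). Fasn, the fatty acid synthase, was at 1513–5565 CPM in Vehicle and 2537–5007 CPM in GDF15 and Scd1, the desaturase of saturated fatty acids, at 11509–28027 CPM in Vehicle and 14307–28969 CPM in GDF15. Neither passed (adjusted p = 0.804 and 0.494), and each spread widely within Vehicle. None of 30 genes of fatty acid oxidation and ketone bodies passed edgeR's test (median 0.05; 4 at an unadjusted p under 0.05, 2 by DESeq2 and 1 by limma-voom; 2 called without GDF15 5). Cpt1a, the gate of fatty acids into mitochondria, was at 0.22 ± 0.15 (adjusted p = 0.52). The list does not hold every gene of the pathway. Outside it Crot, a carnitine octanoyltransferase, fell from 510–822 CPM in Vehicle to 398–549 CPM in GDF15, with overlap (log2 fold change -0.46 ± 0.11, SE, adjusted p = 0.0322). Abcd3, also outside it, passed as higher. Neither was followed through the refits.

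Of 27 cholesterol genes 1 rose and 25 were above 0 (median 0.24; 2 to 3 called without GDF15 3 or 5). The median was 0.15 without Vehicle 1 and 0.37 without Vehicle 2. In the lipoprotein list 4 of 22 rose (median 0.20; 2 called without Vehicle 1, 3 or 5 or GDF15 1, 2 or 4). Lipg, a phospholipase that acts on HDL, stood at 16.6, 17.2, 12.5, 16.8 and 20.1 CPM in Vehicle and at 53, 56.5, 26.3, 27.8 and 41.3 CPM in GDF15. GDF15 3 and 4 were the lowest treated libraries and above the Vehicle range (log2 fold change 1.29 ± 0.22, SE, adjusted p = 0.00711). Tm6sf2, needed to load lipid onto VLDL, went from 30.6–38.8 CPM in Vehicle to 38.7–54.7 CPM in GDF15 (log2 fold change 0.52 ± 0.10, SE, adjusted p = 0.00611). Apoc3, an inhibitor of triglyceride clearance, was at 0.30 ± 0.08 (adjusted p = 0.0495, lost without Vehicle 1 to 5 or GDF15 1 to 4 at up to 0.133), and Lcat, which esterifies cholesterol in HDL, at 0.30 ± 0.08 (adjusted p = 0.0434, lost without Vehicle 1, 3 or 5 or GDF15 1, 2 or 4 at up to 0.122).

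Among bile acid genes 3 of 25 rose (median 0.12; 1 called without Vehicle 1, 3, 4 or 5 or GDF15 1, 2 or 4). Cyp27a1, which oxidises the side chain of sterols, stood at 308, 371, 309, 379 and 364 CPM in Vehicle and at 559.8, 592, 485, 473 and 499.7 CPM in GDF15. The groups were apart, Vehicle 4 and GDF15 4 being the nearest pair (log2 fold change 0.59 ± 0.09, SE, adjusted p = 0.00228). Cyp2c70, which makes the muricholic acids of mice, went from 183–253 CPM in Vehicle to 277–443 CPM in GDF15 (log2 fold change 0.68 ± 0.17, SE, adjusted p = 0.0488, lost without Vehicle 1 to 5 or GDF15 1 to 4 at up to 0.128) and belongs to a family whose copies can share reads. Akr1d1 was the other gene that rose. Cyp7a1, the rate-limiting enzyme of the classical route, was at 9.67–64.7 CPM in Vehicle and 30.8–88.7 CPM in GDF15 and did not pass (log2 fold change 0.55 ± 0.47, SE, adjusted p = 0.605).

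Of 41 cytochrome P450 genes of drug and steroid metabolism, with their reductase, 5 rose and 39 were above 0 (median 0.24; 2 to 3 called without Vehicle 1, 3 or 5 or GDF15 1 or 2). Cyp17a1, which makes androgens from progestins, stood at 58.2, 50.5, 59.6, 25.5 and 73.8 CPM in Vehicle and at 144, 205, 135, 205 and 121 CPM in GDF15. Vehicle 4 was the lowest library and no libraries overlapped (log2 fold change 1.60 ± 0.24, SE, adjusted p = 0.00371). Por, which passes electrons to the P450 enzymes, went from 88.7–211 CPM in Vehicle to 199–446 CPM in GDF15, with Vehicle 4 inside the treated range (log2 fold change 1.18 ± 0.26, SE, adjusted p = 0.0295, lost without Vehicle 1, 2, 3 or 5 or GDF15 1, 2 or 5 at up to 0.0864). Cyp39a1, which hydroxylates an oxysterol, went from 19.9–27.2 CPM in Vehicle to 29.3–43.4 CPM in GDF15 (log2 fold change 0.57 ± 0.11, SE, adjusted p = 0.00766). Cyp3a59 was at 0.52 ± 0.12 (adjusted p = 0.021, lost without Vehicle 1 or 3 or GDF15 1 or 2 at up to 0.0702) and Cyp2c68 at 0.45 ± 0.11 (adjusted p = 0.0368, lost without Vehicle 1, 3 or 5 or GDF15 1 or 2 at up to 0.11); both have close copies with which counts can be shared.

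Conjugation enzymes make drugs and hormones soluble, and 5 of 40 rose while 1 fell (median 0.12). Sult1a1, a phenol sulfotransferase, stood at 195, 265, 249, 249.6 and 245 CPM in Vehicle and at 436, 433, 364, 407 and 319 CPM in GDF15. Vehicle 1 was low in an otherwise close group, and all treated libraries were higher (log2 fold change 0.70 ± 0.10, SE, adjusted p = 0.00188). Sult1d1, a sulfotransferase of catecholamines, went from 71.9–96.1 CPM in Vehicle to 126–186 CPM in GDF15 (log2 fold change 0.83 ± 0.12, SE, adjusted p = 0.00202). Papss2, which makes the sulfate donor of these enzymes, went from 104–158 CPM in Vehicle to 185–257 CPM in GDF15 (log2 fold change 0.74 ± 0.11, SE, adjusted p = 0.00199). Gstt1 and Gstk1, glutathione transferases, were at 0.32 ± 0.08 (adjusted p = 0.0281, lost without Vehicle 1 or 2 or GDF15 1, 2 or 4 at up to 0.0767) and 0.26 ± 0.06 (adjusted p = 0.0373, lost without Vehicle 1, 3, 4 or 5 or GDF15 1 to 4 at up to 0.109). Ugt2b35, a glucuronosyltransferase with close copies that can share its reads, fell from 169–193 CPM in Vehicle to 138–153 CPM in GDF15 (log2 fold change -0.30 ± 0.06, SE, adjusted p = 0.00986).

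Of 38 transporters of organic ions, metals and other solutes 3 rose (median 0.11; 1 called without Vehicle 3 or GDF15 1 or 2 and 5 called without Vehicle 4 or GDF15 3). Slc22a7, an organic anion carrier that also carries cGMP, stood at 19.1, 23.5, 14.3, 17.7 and 16.3 CPM in Vehicle, at 32.2, 29.2, 26.1, 23.6 and 25.4 CPM in GDF15 and at 9.29, 11.9, 13.3, 9.52 and 10.6 CPM in PairFed. The 3 groups did not overlap, with GDF15 highest and PairFed lowest (log2 fold change 0.58 ± 0.13, SE, adjusted p = 0.018, lost without Vehicle 3 or GDF15 1 or 2 at up to 0.0605). Slc29a1, a nucleoside carrier, went from 139–205 CPM in Vehicle to 239.7–349.7 CPM in GDF15 (log2 fold change 0.66 ± 0.13, SE, adjusted p = 0.0121), and Slc39a14, a carrier of zinc, iron and manganese, was at 0.42 ± 0.11 (adjusted p = 0.0439, lost without Vehicle 1, 2, 3 or 5 or GDF15 1, 2, 4 or 5 at up to 0.139). Of 27 antioxidant genes in a joint list for NRF2 and thioredoxin 1 rose, with a list median of 0.00 (0 called without GDF15 2 and 2 called without Vehicle 2). It was the thioredoxin reductase Txnrd3, at 0.54 ± 0.11 (adjusted p = 0.0138, lost without GDF15 2 at 0.0507).

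Clock genes keep daily time in the liver, and their levels depend on the hour and on meals. Of 23 tested members 3 rose and none fell, with a median of 0.41 (1 called without GDF15 2 and 5 called without GDF15 3). The median was 0.22 without Vehicle 3, 0.22 without GDF15 1, 0.27 without Vehicle 5 and 0.27 without GDF15 2. Per1, a repressor of the clock that glucocorticoids also induce, stood at 32.2, 32.5, 17, 39.3 and 36.2 CPM in Vehicle and at 92.5, 101, 43.8, 68.6 and 88.2 CPM in GDF15. Vehicle 3 was the low library, and GDF15 3 was just above the top of Vehicle (log2 fold change 1.32 ± 0.24, SE, adjusted p = 0.0121). Ciart, a repressor that binds the clock activators, stood at 2.38, 2.61, 0.624, 4.69 and 1.39 CPM in Vehicle and at 22.7, 13.3, 6.24, 8.04 and 18.2 CPM in GDF15. It is weakly expressed, its groups were apart, and it rose 5.52-fold (log2 fold change 2.47 ± 0.54, SE, adjusted p = 0.0279, lost without Vehicle 1, 2, 3 or 5 or GDF15 1, 2 or 5 at up to 0.0777). Cry2, a repressor and partner of the Per proteins, went from 27.7–39 CPM in Vehicle to 40–52.8 CPM in GDF15 (log2 fold change 0.45 ± 0.10, SE, adjusted p = 0.0161, lost without GDF15 2 at 0.0601). The hours of sampling being unknown, the part of the hour in these differences was not tested.

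The promoters of Ciart, Per1 and Fkbp5 are shown because these genes rose and their windows hold the E-box CACGTG, the letters read by the clock activators and by other basic helix-loop-helix proteins. Each is the 250 bases before the start site, 5′ to 3′ in the gene's own direction, from RefSeq on GRCm38.p6, with E-boxes in capitals. The start site is the one the RefSeq window table uses, which need not be the outermost of the gene: the Ciart window partly overlaps the gene's annotated span and the Per1 window lies inside it. Per1 has 2 windows, and the one printed holds the E-box. The windows are chr3:95882229-95882478 on the minus strand for Ciart, chr11:69098699-69098948 on the plus strand for Per1 and chr17:28486150-28486399 on the minus strand for Fkbp5.
Ciart: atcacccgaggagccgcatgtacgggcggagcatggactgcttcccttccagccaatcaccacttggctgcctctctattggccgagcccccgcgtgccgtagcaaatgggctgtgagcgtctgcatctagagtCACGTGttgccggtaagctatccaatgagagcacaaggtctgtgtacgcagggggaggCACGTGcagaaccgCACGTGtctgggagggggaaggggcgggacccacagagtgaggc
Per1: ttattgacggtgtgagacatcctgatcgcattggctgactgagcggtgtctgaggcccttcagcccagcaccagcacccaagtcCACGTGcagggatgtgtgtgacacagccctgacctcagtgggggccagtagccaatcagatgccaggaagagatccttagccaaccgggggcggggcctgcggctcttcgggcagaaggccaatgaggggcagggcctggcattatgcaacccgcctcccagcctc
Fkbp5: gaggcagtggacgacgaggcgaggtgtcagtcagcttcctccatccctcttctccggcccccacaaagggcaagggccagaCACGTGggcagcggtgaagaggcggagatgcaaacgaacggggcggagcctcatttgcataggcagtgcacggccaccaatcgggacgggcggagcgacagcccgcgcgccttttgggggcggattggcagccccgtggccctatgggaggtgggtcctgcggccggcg
Ciart holds 3 E-boxes, starting 116, 58 and 44 bases before the start site; the one in Per1 starts 166 bases and the one in Fkbp5 169 bases before it. CACGTG reads the same on both strands. It occurred in a window of 12.8% of the genes that rose, 3.41% of those that fell and 11.7% of all tested genes with a window. Counted per window and not per gene, it was in 7.15% of all 32851 windows. Its share among the genes that rose was close to that of all tested genes. The full glucocorticoid response element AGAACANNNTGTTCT was in windows of 2 tested genes. None of the 196 genes that rose or the 88 that fell, among those with a window, held it. Receptor sites often lie far from start sites, and none was looked for there. The element's half-site AGAACA, on either strand, was in windows of 17.3% of genes that rose, 26.1% of those that fell and 1490 of the 9847 tested genes with a window. Of the other letters searched on both strands, the Y-box ATTGGC is an inverted CCAAT box known from class II and many other promoters. It was in windows of 32.1% of genes that rose, 14.8% of those that fell and 22.1% of all tested genes, and in 14.7% of all windows. The cyclic AMP response element TGACGTCA was in 4.08%, 1.14%, 3.42% and 1.79% of these, and the D-box TTATGTAA in 0.51%, 1.14%, 0.711% and 0.938%. A gene was counted if any of its windows held the letters. Windows ran from 250 bases before to 50 bases after the start site. These matches are a description of letters and not of bound sites.

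Immediate-early genes, which answer stimuli and handling within minutes, had a median of 0.95 with 23 of 27 above 0, and 1 passed (2 to 9 called without Vehicle 2 or GDF15 3 or 4; 9 by DESeq2). It was Csrnp1, a nuclear protein induced by growth and stress signals, from 6.24–11.1 CPM in Vehicle to 14.2–33.3 CPM in GDF15 (log2 fold change 1.31 ± 0.23, SE, adjusted p = 0.00706). The mean log2 level of the 27 genes, set against the Vehicle mean, was 1.14, 1.23, -0.06, 0.57 and 0.90 in GDF15 1 to 5 and between -0.34 and 0.35 in Vehicle. For the glucocorticoid targets it was 1.21, 1.48, 0.46, 0.87 and 1.14 in GDF15 1 to 5 and between -0.24 and 0.28 in Vehicle. GDF15 3 was the lowest and GDF15 2 the highest treated library in both lists; the part of one in the other was not tested. Sik1, a kinase induced by cAMP, was at 21.3–71.3 CPM in Vehicle and 18.3–189.8 CPM in GDF15 and did not pass (log2 fold change 1.44 ± 0.55, SE, adjusted p = 0.204).

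Of 40 kinases and phosphatases of growth signalling 4 rose and 1 fell (median 0.09; 1 to 3 called without Vehicle 1 or 3 or GDF15 1, 2 or 5 and 10 called without GDF15 3). Mknk2 and Errfi1 were among those that rose. Pim3, a kinase that favours survival, stood at 29.9, 59.4, 19.5, 51.6 and 70.5 CPM in Vehicle and at 258, 211, 75.5, 113 and 169 CPM in GDF15. The lowest treated library lay just above the highest Vehicle library, and the rise was 3.57-fold (log2 fold change 1.84 ± 0.37, SE, adjusted p = 0.021, lost without Vehicle 1 or GDF15 1 or 2 at up to 0.0628). Spry4, a brake on growth factor signalling, was at 0.69 ± 0.18 (adjusted p = 0.0446, lost without Vehicle 1 to 3 or GDF15 1, 2 or 5 at up to 0.12). Ddit4l, a paralogue of an mTOR inhibitor, fell from 4.1–8 CPM in Vehicle to 1.89–3.9 CPM in GDF15 (log2 fold change -1.15 ± 0.28, SE, adjusted p = 0.0332, lost without Vehicle 1, 2, 3 or 5 or GDF15 1, 2, 4 or 5 at up to 0.091). Ulk1, the kinase that starts autophagy, rose from 114–139 CPM in Vehicle to 151–206 CPM in GDF15 (log2 fold change 0.56 ± 0.10, SE, adjusted p = 0.00371). It was 1 of 3 that rose among 32 autophagy and lysosome genes (median 0.04; 1 called without Vehicle 3 or GDF15 2 or 4), with Atg2a at 0.32 ± 0.07 (adjusted p = 0.0251, lost without Vehicle 2 or 3 or GDF15 2 or 4 at up to 0.0869) and Map1lc3b at 0.34 ± 0.09 (adjusted p = 0.0485, lost without Vehicle 1 to 3 or GDF15 1, 2, 4 or 5 at up to 0.153).

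Among lists of antigen presentation and inflammation, also chosen with earlier results known, the class II list had the highest share of falls. MHC class II molecules show peptides to helper T cells and are made by macrophages, dendritic cells and B cells. Of 11 tested class II genes 6 fell, none rose and all 11 were below 0, with a median of -0.70, against 0.880% of all genes that fell. The number called was 3 without Vehicle 1, Vehicle 3 or GDF15 2. Summed over the list, levels were 655 to 895 CPM in Vehicle and 336 to 573 CPM in GDF15. In whole liver, fewer cells of a type and less RNA per cell cannot be told apart. Beside these falls, recruited monocyte markers had a median of -0.41, B cell markers of -0.96 (-0.20 without Vehicle 4), dendritic cell and neutrophil markers of -0.35 and Kupffer cell markers of 0.01; their part in the result was not tested.

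Ciita, the factor that switches on all class II genes, stood at 7.92, 6.94, 5.3, 9.3 and 4.92 CPM in Vehicle 1 to 5 and at 2.3, 3.56, 3.41, 3.63 and 3.68 CPM in GDF15 1 to 5. All treated libraries were below Vehicle, and the level was 2.07-fold lower (log2 fold change -1.05 ± 0.20, SE, adjusted p = 0.00711). H2-DMa, part of the complex that loads peptides, stood at 12.2, 9.65, 8.42, 12.2 and 9.1 CPM in Vehicle and at 5.24, 5.05, 5.07, 6.96 and 5.68 CPM in GDF15. The 2 groups were each close and apart from each other (log2 fold change -0.88 ± 0.14, SE, adjusted p = 0.00259). H2-DMb1, its partner, went from 9.85–16 CPM in Vehicle to 5.88–8.73 CPM in GDF15 (log2 fold change -0.84 ± 0.13, SE, adjusted p = 0.00228) and can share reads with the copy next to it. H2-Ab1, the beta chain of a class II molecule, went from 70.1–115 CPM in Vehicle to 40.8–62.9 CPM in GDF15 (log2 fold change -0.70 ± 0.15, SE, adjusted p = 0.0239, lost without Vehicle 1 or 3 or GDF15 1 or 2 at up to 0.0666), and H2-Eb1 from 70–106 CPM in Vehicle to 37.6–60.2 CPM in GDF15 (log2 fold change -0.70 ± 0.16, SE, adjusted p = 0.0327, lost without Vehicle 1, 3 or 4 or GDF15 1, 2 or 4 at up to 0.0869). Ctss, the protease that clears the groove for peptides, went from 80.3–109 CPM in Vehicle to 43.1–73.9 CPM in GDF15 (log2 fold change -0.50 ± 0.12, SE, adjusted p = 0.0353, lost without Vehicle 1, 3, 4 or 5 or GDF15 2 or 5 at up to 0.104).

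Cd74, the invariant chain, missed the threshold although its groups did not overlap: it stood at 268, 238, 272, 316 and 217 CPM in Vehicle and at 100.3, 186, 175, 202 and 176 CPM in GDF15 (log2 fold change -0.64 ± 0.17, SE, adjusted p = 0.0547). GDF15 1 was far below the other treated libraries. Class I presentation, which all cells use, differed less: 1 of 25 fell (median -0.15; 0 called without GDF15 2 and 3 called without Vehicle 3), the peptide transporter Tap1, which stood at 49.1, 53.6, 41.6, 53.8 and 43.6 CPM in Vehicle and at 37.8, 33.6, 38.4, 36.9 and 35.6 CPM in GDF15. The groups were apart by a small step (log2 fold change -0.41 ± 0.09, SE, adjusted p = 0.018, lost without GDF15 2 at 0.0604).

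Most interferon-stimulated genes had small negative fold changes, few of which passed. Of 40 tested 39 were below 0, with a median of -0.33, and 5 fell (1 to 3 called without Vehicle 1 to 4 or GDF15 1 to 3). Gbp2, a GTPase that acts on the vacuoles of microbes, stood at 14.2, 23.1, 12.1, 18.7 and 10.8 CPM in Vehicle and at 8.05, 7.34, 6.82, 10.1 and 9.77 CPM in GDF15. Vehicle 5 and GDF15 4 were close, without overlap (log2 fold change -0.91 ± 0.20, SE, adjusted p = 0.0241, lost without Vehicle 4 or GDF15 1 or 2 at up to 0.0752). Ifi47, an interferon-induced GTPase, went from 16.4–25.7 CPM in Vehicle to 11.4–14.4 CPM in GDF15 (log2 fold change -0.65 ± 0.13, SE, adjusted p = 0.0107). Gbp4 was at -0.94 ± 0.23 (adjusted p = 0.0332, lost without Vehicle 1 to 4 or GDF15 1 to 3 at up to 0.098), Ifit3b at -0.61 ± 0.16 (adjusted p = 0.0498, lost without Vehicle 2 to 5 or GDF15 1 to 5 at up to 0.115) and Tgtp1 at -1.56 ± 0.38 (adjusted p = 0.0438, lost without Vehicle 1 to 4 or GDF15 1 to 5 at up to 0.104); each has close copies that can share reads.

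Of 22 tested chemokine and cytokine genes 4 fell, none rose and 19 were below 0 (median -0.52). The number called was 1 to 2 without Vehicle 1 or 3 or GDF15 1 or 4. The list has 31 members with counts. The filter on low counts used all 15 libraries, so a member could be tested through its level outside GDF15. With a filter of 10 CPM in 5 libraries the median was -0.21 and 1 member was called. Cxcl10, which draws T cells and is induced by interferon gamma, stood at 7.42, 9.95, 9.46, 7.77 and 7.06 CPM in Vehicle and at 3.32, 2.87, 5.46, 3.14 and 3.89 CPM in GDF15. The highest treated library, GDF15 3, was below the lowest Vehicle library, and Cxcl10 was 2.21-fold lower (log2 fold change -1.15 ± 0.18, SE, adjusted p = 0.00222). Ccl5, which also draws T cells, stood at 8.81, 6.03, 6.86, 4.4 and 2.78 CPM in Vehicle and at 2.43, 2.52, 1.56, 1.86 and 2.1 CPM in GDF15. Vehicle 5 was close to the treated libraries (log2 fold change -1.47 ± 0.32, SE, adjusted p = 0.0192, lost without Vehicle 1 or 3 at up to 0.0613). Cxcl16, which binds T and NKT cells, went from 17–24.7 CPM in Vehicle to 11–18.9 CPM in GDF15 (log2 fold change -0.52 ± 0.13, SE, adjusted p = 0.0407, lost without Vehicle 1, 3, 4 or 5 or GDF15 1, 3 or 4 at up to 0.106).

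Among 22 NF-kB targets and pathway genes 2 fell (median -0.28; 1 called without Vehicle 1, 3 or 5 or GDF15 1, 2 or 4). Ubd, a ubiquitin-like modifier induced by TNF and interferon gamma, stood at 23.2, 18.6, 16.1, 31.1 and 14.3 CPM in Vehicle and at 8.82, 6.42, 8.09, 4.31 and 10.4 CPM in GDF15. The groups were apart, and the level was 2.74-fold lower (log2 fold change -1.46 ± 0.25, SE, adjusted p = 0.00645). Tnfaip2 went from 27.4–41.2 CPM in Vehicle to 14.6–27.8 CPM in GDF15 (log2 fold change -0.68 ± 0.17, SE, adjusted p = 0.043, lost without Vehicle 1, 2, 3 or 5 or GDF15 1, 2, 4 or 5 at up to 0.12). Cd274 and Syk, of immune signalling, fell as well. Cd274, the checkpoint ligand PD-L1, went from 4.47–7.03 CPM in Vehicle to 2.24–2.94 CPM in GDF15 (log2 fold change -1.12 ± 0.20, SE, adjusted p = 0.00486). Syk, a kinase downstream of immune receptors, stood at 15.8, 16.3, 16.9, 17.5 and 14.3 CPM in Vehicle and at 9.2, 10.9, 10.6, 10.9 and 12.5 CPM in GDF15, with no overlap and little scatter (log2 fold change -0.58 ± 0.09, SE, adjusted p = 0.00199).

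Cxcl10 and Gbp2 are shown with their promoters because both fell and both windows hold the letters GAAANNGAAA, the core of interferon response elements. The windows are again the 250 bases before the start site from RefSeq on GRCm38.p6, chr5:92348890-92349139 on the minus strand for Cxcl10 and chr3:142620413-142620662 on the plus strand for Gbp2, with the match in capitals.
Cxcl10: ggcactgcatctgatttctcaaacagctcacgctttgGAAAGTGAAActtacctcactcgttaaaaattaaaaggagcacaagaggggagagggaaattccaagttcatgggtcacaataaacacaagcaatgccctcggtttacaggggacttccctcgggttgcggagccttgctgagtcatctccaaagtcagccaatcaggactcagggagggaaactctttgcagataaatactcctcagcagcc
Gbp2: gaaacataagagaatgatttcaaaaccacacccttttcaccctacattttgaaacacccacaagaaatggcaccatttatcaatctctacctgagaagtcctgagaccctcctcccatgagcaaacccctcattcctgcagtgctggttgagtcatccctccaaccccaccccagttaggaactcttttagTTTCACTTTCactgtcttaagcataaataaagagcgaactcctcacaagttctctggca
The match starts 213 bases before the start site in Cxcl10, and 59 bases before it in Gbp2, where it is on the other strand. Searched on both strands, GAAANNGAAA was in windows of 5.68% of genes that fell, 4.59% of those that rose and 3.96% of all tested genes. Counted per window and not per gene, it was in 3.44% of all windows. The letters were therefore nearly as frequent in genes that rose as in genes that fell, and a match says nothing about the factors bound.

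**Figure D3:**
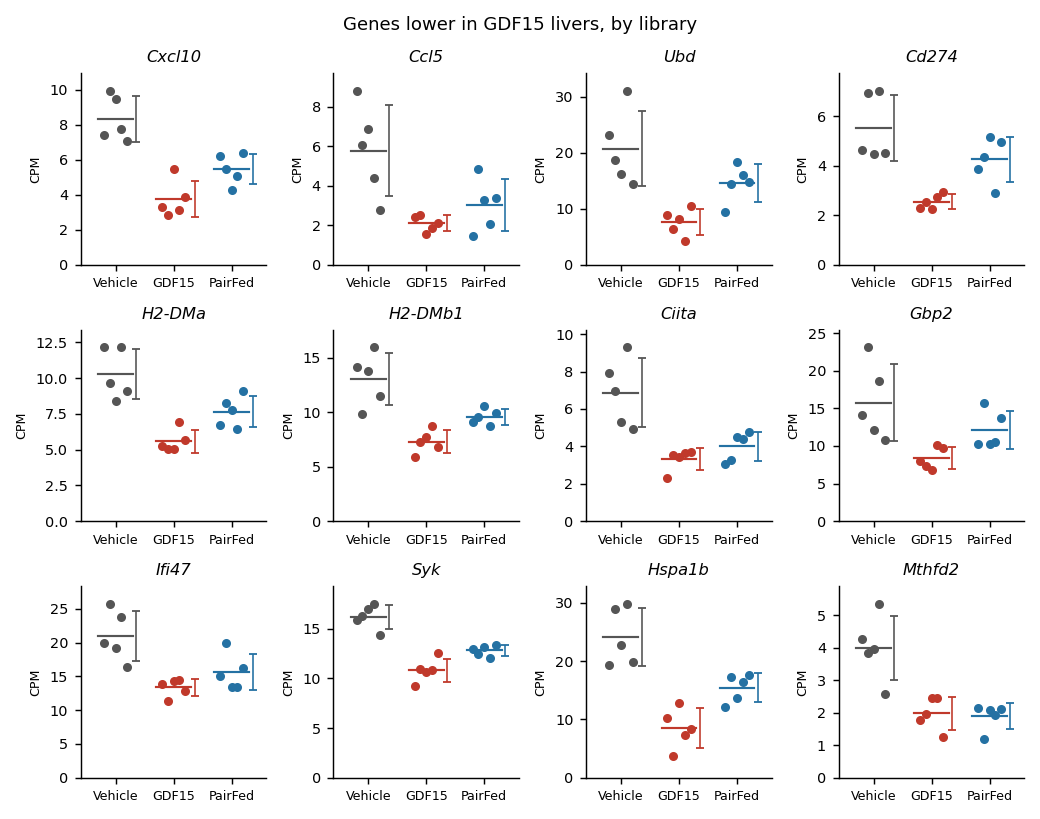
CPM of 12 genes that fell (one panel each: Cxcl10, Ccl5, Ubd, Cd274, H2-DMa, H2-DMb1, Ciita, Gbp2, Ifi47, Syk, Hspa1b and Mthfd2) in each Vehicle, GDF15 and PairFed library, with bars at the group mean and error bars of 1 SD (n = 5). The highest GDF15 point lies below the lowest Vehicle point in every panel, and the PairFed mean lies between the other 2 means in all but Mthfd2.

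Other genes that fell with low adjusted p-values are known from lymphocytes, vessels or signalling. Lbh, a transcriptional cofactor of development, stood at 22.5, 22.7, 24.4, 18.8 and 21.7 CPM in Vehicle and at 9.46, 10.1, 15.396, 14.6 and 13.5 CPM in GDF15 (log2 fold change -0.79 ± 0.13, SE, adjusted p = 0.00228). Myo1g, a myosin of blood cells, went from 5.73–7.33 CPM in Vehicle to 2.56–4.12 CPM in GDF15 (log2 fold change -0.95 ± 0.17, SE, adjusted p = 0.00486). Lpar6, a receptor of lysophosphatidic acid, went from 18.4–22.2 CPM in Vehicle to 12.6–17.2 CPM in GDF15 (log2 fold change -0.46 ± 0.09, SE, adjusted p = 0.0126). Arhgap29, a GTPase activator of endothelial junctions, stood at 47.3, 45.9, 41.9, 47.5 and 46.3 CPM in Vehicle and at 37.3, 36.8, 34.8, 34 and 35.7 CPM in GDF15. Its difference was small and its groups apart (log2 fold change -0.36 ± 0.07, SE, adjusted p = 0.00583).

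In the acute-phase list, which holds proteins that hepatocytes secrete in inflammation and cytokine receptors, 3 of 33 rose and 2 fell, with a median of 0.05 (3 called without GDF15 1 or 2). Of the 3 that rose, Il6ra and Il1r1 encode receptors. Il6ra, the receptor of interleukin 6, stood at 43.7, 41.2, 23.1, 52.2 and 43.2 CPM in Vehicle and at 106, 98.2, 66.2, 84.8 and 99 CPM in GDF15. Vehicle 3 was lowest, and the groups were apart (log2 fold change 1.15 ± 0.17, SE, adjusted p = 0.00259). Il1r1, the receptor of interleukin 1, went from 20.9–39 CPM in Vehicle to 37.9–78.7 CPM in GDF15, with GDF15 3 and 4 at the level of Vehicle 4 (log2 fold change 1.02 ± 0.22, SE, adjusted p = 0.025, lost without Vehicle 1, 2, 3 or 5 or GDF15 1 or 2 at up to 0.0724). Serpina3m, a protease inhibitor with many copies that can share its reads, went from 279.6–340.1 CPM in Vehicle to 358–532 CPM in GDF15 (log2 fold change 0.55 ± 0.11, SE, adjusted p = 0.0128). Orm2, an orosomucoid with close copies, fell from 60.4–88.3 CPM in Vehicle to 38.5–59.5 CPM in GDF15 (log2 fold change -0.60 ± 0.12, SE, adjusted p = 0.0127). Apcs, serum amyloid P, fell from 96.5–127 CPM in Vehicle to 72.2–93.1 CPM in GDF15 (log2 fold change -0.40 ± 0.09, SE, adjusted p = 0.025, lost without GDF15 1 or 2 at up to 0.0707). Of 38 complement and coagulation genes 1 rose, C8g, at 0.30 ± 0.08 (adjusted p = 0.0439, lost without Vehicle 1, 3, 4 or 5 or GDF15 1 to 4 at up to 0.124; 0 called without Vehicle 1, 3, 4 or 5 or GDF15 1 to 3).

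Chaperones split by member. Of 25 heat shock genes 2 fell and 2 rose (median -0.05; 2 called without Vehicle 1 or 3 or GDF15 1 or 2). Hspa1b, the inducible HSP70, stood at 19.4, 28.9, 22.8, 29.8 and 19.9 CPM in Vehicle and at 10.2, 3.67, 12.9, 7.35 and 8.41 CPM in GDF15. GDF15 2 was lowest, and the level was 2.84-fold lower (log2 fold change -1.50 ± 0.23, SE, adjusted p = 0.0028); it can share reads with a near-identical neighbour. Hspa8, the constitutive HSP70, went from 1299–1519.5 CPM in Vehicle to 987–1291 CPM in GDF15 (log2 fold change -0.30 ± 0.08, SE, adjusted p = 0.0435, lost without Vehicle 1 to 4 or GDF15 1, 2, 4 or 5 at up to 0.12). Hspa2 rose from 2.81–5.64 CPM in Vehicle to 5.85–13 CPM in GDF15 (log2 fold change 1.03 ± 0.24, SE, adjusted p = 0.0279, lost without Vehicle 1 or 3 or GDF15 1, 2 or 5 at up to 0.091) and Hspb8, a small heat shock protein, from 139.9–181 CPM in Vehicle to 184–218 CPM in GDF15 (log2 fold change 0.41 ± 0.08, SE, adjusted p = 0.0107). Of 27 folding genes of the endoplasmic reticulum 22 were below 0 and the median was -0.19 (2 to 3 called without Vehicle 5 or GDF15 1 or 3), while the 1 that passed, Herpud1, which helps destroy misfolded proteins, rose from 287–486 CPM in Vehicle to 559.6–693 CPM in GDF15 (log2 fold change 0.66 ± 0.12, SE, adjusted p = 0.00645).

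Hamp2, a copy of the iron hormone hepcidin with which it can share reads, stood at 35, 17.8, 46.3, 66.2 and 52 CPM in Vehicle and at 201, 211, 129, 141 and 82.3 CPM in GDF15. GDF15 5 was the lowest treated library and above all Vehicle libraries (log2 fold change 1.81 ± 0.35, SE, adjusted p = 0.018, lost without Vehicle 1 or GDF15 1 or 2 at up to 0.059). With Slc39a14 it made 2 of 22 iron genes that rose (median 0.10; 0 to 1 called without Vehicle 1, 2, 3 or 5 or GDF15 1, 2, 4 or 5). Upp2, a liver uridine phosphorylase, stood at 29.4, 62.5, 16, 110.3 and 65.1 CPM in Vehicle and at 378, 389.5, 153, 219.9 and 329 CPM in GDF15. Vehicle varied widely, all treated libraries were higher, and the rise was 5.15-fold (log2 fold change 2.37 ± 0.47, SE, adjusted p = 0.0211, lost without Vehicle 1 or GDF15 1 or 2 at up to 0.0611). Selenbp2, a selenium-binding protein gene with a close copy that can share its reads, was the 1 of 25 genes of growth hormone response and sex bias that fell, at -0.70 ± 0.18 (adjusted p = 0.0495, lost without Vehicle 1, 2, 4 or 5 or GDF15 1, 2 or 4 at up to 0.134). That list had 0 called without Vehicle 1, 2, 4 or 5 or GDF15 1, 2 or 4 and at most 2 called without any 1 library.

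Markers of the liver's cells were read to see which cell types moved with these groups. Hepatocyte markers had a median of 0.20 with 5 of 24 rising (3 called without Vehicle 1 to 3 or GDF15 1, 2 or 4); Cps1, Ass1, Mat1a and Apoc3 were among them, and other lists hold these too. Of 20 periportal genes 7 rose (median 0.23), all of them enzymes of amino acid or urea metabolism. Of 24 pericentral genes 1 rose, Cyp27a1 (median 0.18; 2 called without Vehicle 2 or GDF15 3 or 5). Kupffer cell markers had a median of 0.01, and none of 20 passed edgeR's test (3 at an unadjusted p under 0.05, 0 by DESeq2 and 0 by limma-voom). They summed to 831 to 1044 CPM in Vehicle and 591 to 1084 CPM in GDF15. Clec4f, found on Kupffer cells, stood at 79, 76.7, 78, 56 and 74.4 CPM in Vehicle and at 51.7, 84.6, 93, 90.4 and 103 CPM in GDF15 (log2 fold change 0.22 ± 0.18, SE, adjusted p = 0.577).

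Markers of recruited monocytes were all below 0, 19 of 19, with a median of -0.41, and summed to 264 to 402 CPM in Vehicle and 187 to 325 CPM in GDF15, so the ranges overlapped. The 1 that fell was Ly6c2, from 0.749–2.08 CPM in Vehicle to 0.383–0.98 CPM in GDF15 (log2 fold change -1.38 ± 0.33, SE, adjusted p = 0.0311, lost without Vehicle 1, 3 or 4 or GDF15 1, 2 or 5 at up to 0.0918); the list had 0 called without Vehicle 1, 3 or 4 or GDF15 1, 2 or 5 and 2 called without Vehicle 2. T and NK cell markers were near the limit of detection, summing to 15.8 to 27.2 CPM in Vehicle and 14.8 to 18.5 CPM in GDF15. Of 21 members with counts 10 passed the filter on low counts and were tested. That filter used all 15 libraries, so a member could be tested through its level outside GDF15. Among the 10 tested 3 fell and 1 rose, with a median of -1.20 (0 to 2 called without Vehicle 1 to 4 or GDF15 1 to 4). The median was -0.74 in a fit of only the 2 groups compared. Cd8a, of cytotoxic T cells, was at 2.18, 2.61, 1.56, 1.54 and 0.642 CPM in Vehicle and at 0.639, 0.115, 0.487, 0.392 and 0.42 CPM in GDF15 (adjusted p = 0.0172, lost without Vehicle 1 or GDF15 2 at up to 0.0557). Cd3g, of the T cell receptor complex, was at 0.535–2.42 CPM in Vehicle and 0.196–0.736 CPM in GDF15 (adjusted p = 0.0491, lost without Vehicle 1 to 4 or GDF15 1 to 4 at up to 0.122), and Il2rb, an interleukin 2 receptor chain, at 3.53–5.05 CPM in Vehicle and 2.17–3.05 CPM in GDF15 (adjusted p = 0.0335, lost without Vehicle 1 to 4 or GDF15 1 to 4 at up to 0.0846). Zap70, a kinase of T cell receptor signalling, rose from 3.92–6.97 CPM in Vehicle to 6.19–10.5 CPM in GDF15 (log2 fold change 0.79 ± 0.19, SE, adjusted p = 0.0278, lost without Vehicle 1, 2, 4 or 5 or GDF15 1 or 4 at up to 0.0815). None of 6 B cell markers passed edgeR's test (3 at an unadjusted p under 0.05, 0 by DESeq2 and 0 by limma-voom), and none of 9 dendritic cell and neutrophil markers (1 at an unadjusted p under 0.05, 0 by DESeq2 and 0 by limma-voom). The same filter left these tested members out of 13 B cell and 16 dendritic cell and neutrophil markers with counts.

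Lipid-associated macrophage genes had a median of -0.29, and none of 20 passed edgeR's test (10 at an unadjusted p under 0.05, 3 by DESeq2 and 0 by limma-voom; 2 to 4 called without Vehicle 2 or GDF15 3). Trem2, their receptor, was at -0.47 ± 0.18 (adjusted p = 0.19). Stellate cell and matrix genes had a median of -0.27, and none of 34 passed edgeR's test (3 at an unadjusted p under 0.05, 1 by DESeq2 and 0 by limma-voom; 1 called without GDF15 5). The stellate median was -0.41 without GDF15 5, -0.17 without Vehicle 1 and -0.12 without GDF15 1. Their sums overlapped, 2730 to 3811 CPM in Vehicle and 2390 to 3392 CPM in GDF15. Col1a1, the chief collagen of scar, stood at 132, 52.2, 91.9, 71.5 and 81.1 CPM in Vehicle and at 24.7, 37.4, 80.5, 53.6 and 81.6 CPM in GDF15, with overlap and no call (log2 fold change -0.62 ± 0.37, SE, adjusted p = 0.44). Of 17 bile duct and progenitor markers 1 fell, Krt18, at -0.31 ± 0.08 (adjusted p = 0.0498, lost without Vehicle 1 to 4 or GDF15 1, 2, 4 or 5 at up to 0.143). The list median was -0.27, and -0.50 without GDF15 5. This list had 0 called without Vehicle 1 to 4 or GDF15 1, 2, 4 or 5 and at most 2 called without any 1 library. None of 21 endothelial markers passed (median 0.04; 0 at an unadjusted p under 0.05, 0 by DESeq2 and 0 by limma-voom), and none of 7 markers of blood and neighbouring tissues (median -0.06; 2 at an unadjusted p under 0.05, 1 by DESeq2 and 1 by limma-voom).

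GDF15 1 stood apart in its cell markers. Relative to the Vehicle mean, GDF15 1 was at -1.18 for class II genes, where the other treated libraries were between -0.65 and -0.57. It was also the lowest of the 10 libraries for Kupffer (-0.69), endothelial (-0.98) and stellate (-1.11) markers. Without GDF15 1, 133 genes rose and 39 fell. In that refit the class II median was -0.61 and the chemokine median -0.46. The gluconeogenesis, clock and stellate medians moved more, to 0.11, 0.22 and -0.12. Vehicle 4 was low for endothelial markers, at -0.79, and GDF15 5 was high, at 0.61.

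**Figure D4:**
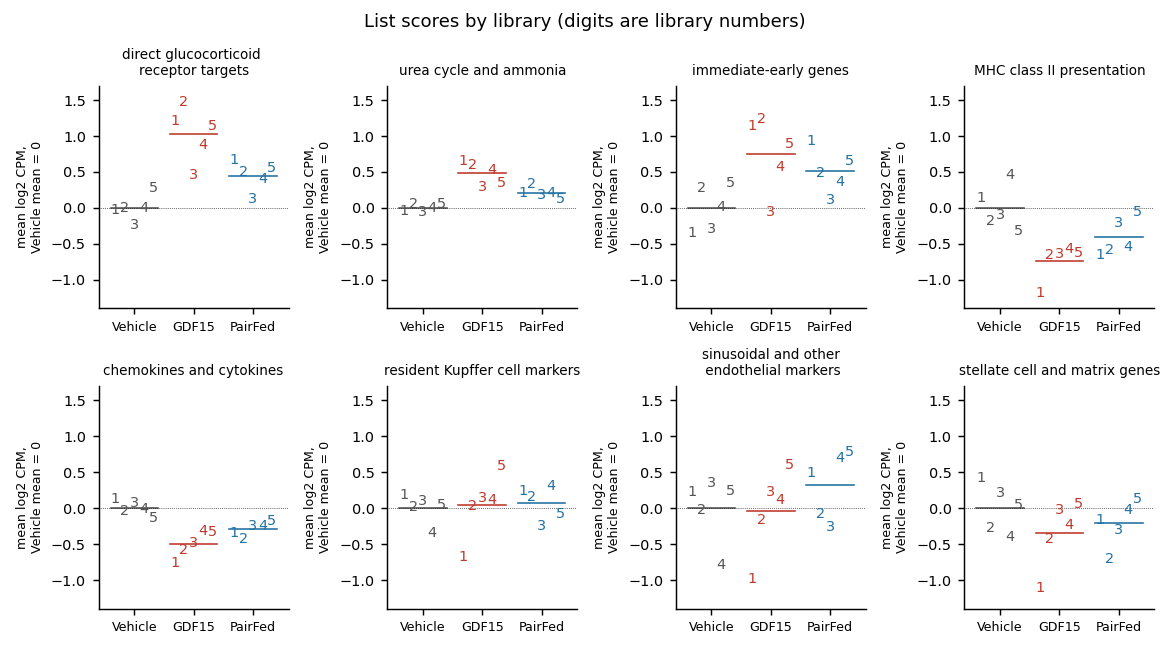
Mean log2 level of the tested members of 8 gene lists in each library, relative to the Vehicle mean (vertical axis, log2 CPM difference), with the library's number printed as its point. GDF15 libraries lie above Vehicle for glucocorticoid targets, at 0.46 to 1.48, and below it for MHC class II genes, at -1.18 to -0.57, and GDF15 1 is lowest for the Kupffer, endothelial and stellate lists.

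In 4 lists of general cell machinery no member passed the test. None of 74 cytosolic ribosomal protein genes passed edgeR's test (0 at an unadjusted p under 0.05, 0 by DESeq2 and 0 by limma-voom), and their log2 fold changes lay between -0.19 and 0.13. None of 64 nuclear genes of oxidative phosphorylation passed (9 at an unadjusted p under 0.05, 3 by DESeq2 and 0 by limma-voom; 3 called without GDF15 5), with a range of -0.01 to 0.26 and a median of 0.10. None of 31 proteasome genes passed (0 at an unadjusted p under 0.05, 0 by DESeq2 and 0 by limma-voom), and none of 29 cell cycle genes (median -0.23; 3 at an unadjusted p under 0.05, 0 by DESeq2 and 0 by limma-voom). The cell cycle median was -0.39 without GDF15 3, -0.13 without GDF15 2 and -0.10 without Vehicle 3. Of the 356 changed genes 124 were in at least 1 of the lists and 232 in none.

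**Figure D5:**
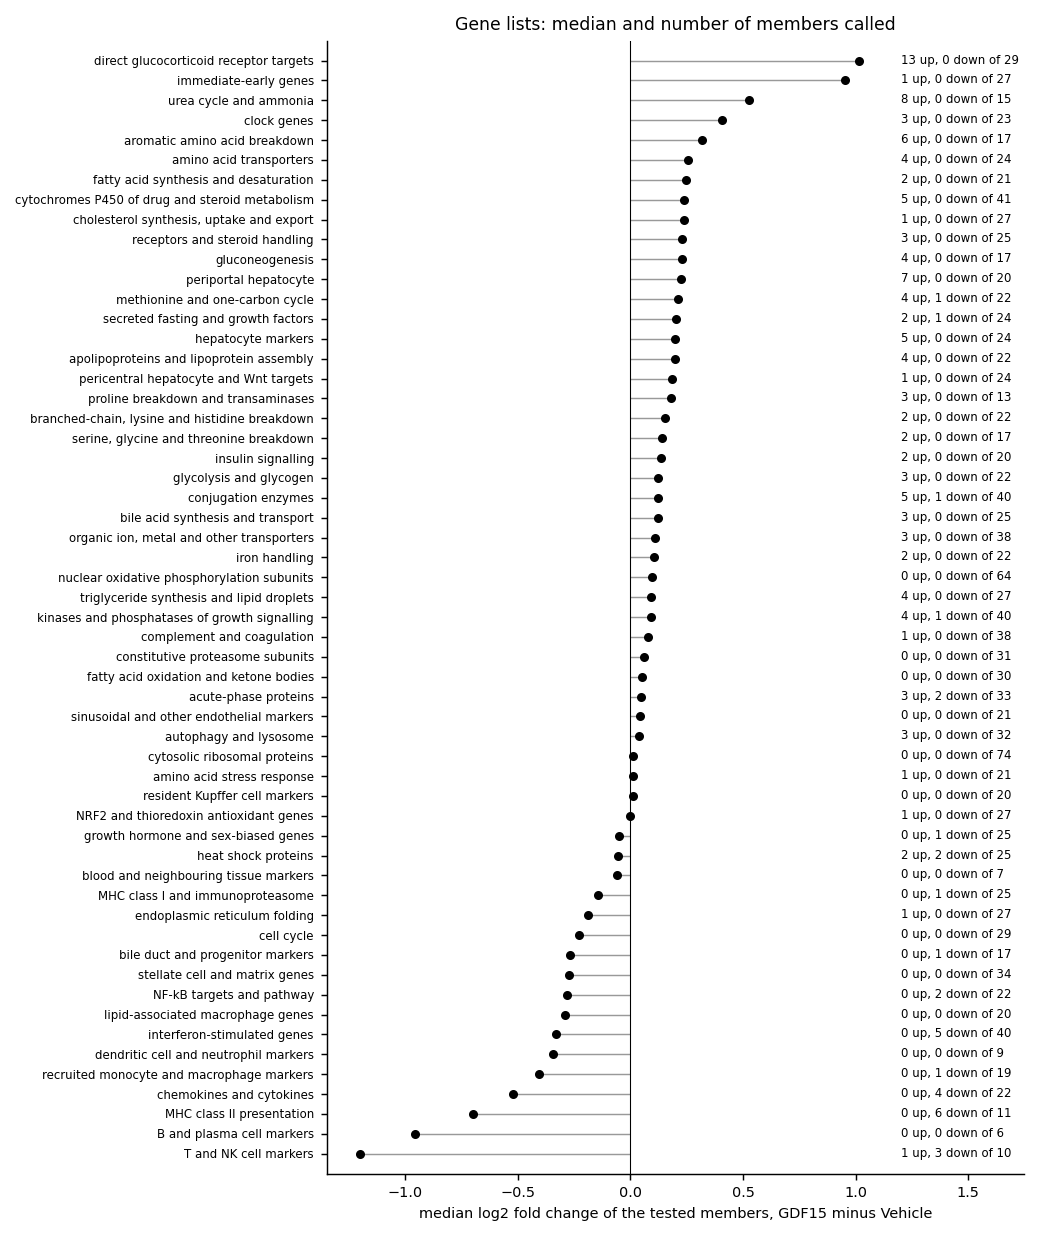
Median log2 fold change between GDF15 and Vehicle of the tested members of 56 gene lists (horizontal axis), with the numbers that rose, fell and were tested printed beside each. The largest medians above 0 are those of glucocorticoid targets and immediate-early genes. The largest below 0 are those of T and NK cell, B cell and MHC class II genes. The B cell median was -0.20 without Vehicle 4, and the T and NK median was -0.74 in a fit of only the 2 groups compared.

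Some changed genes are neighbours on the chromosome. In the order of tested genes, 44 changed genes formed 20 runs with an adjacent gene that changed in the same direction, and 4 runs held 3 or more. On chromosome 1 of the mm10 build Macir (97643902 to 97662018), Ppip5k2 (97706043 to 97770411) and Gin1 (97770172 to 97793710) rose together. Ppip5k2, a kinase of inositol pyrophosphates, went from 35.3–42.2 CPM in Vehicle to 48.8–59.9 CPM in GDF15 (log2 fold change 0.41 ± 0.08, SE, adjusted p = 0.00645), and Macir, a regulator of macrophage cytokines, from 14.6–19.8 CPM in Vehicle to 18.6–26.7 CPM in GDF15 (log2 fold change 0.45 ± 0.11, SE, adjusted p = 0.0258, lost without Vehicle 3 or 4 or GDF15 1, 2 or 5 at up to 0.0742). Ppip5k2 and Gin1 overlap by their annotated ends, so counts near the border may hold each other's reads. Gin1 had the largest fold of the 3.

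On chromosome 19 Sfxn2 (46573325 to 46596901), Wbp1l (46599106 to 46657389) and Cyp17a1 (46667165 to 46673000) lie side by side. Sfxn2, a sideroflexin of the mitochondrial membrane, went from 39.9–45.6 CPM in Vehicle to 51.5–63.8 CPM in GDF15 (log2 fold change 0.44 ± 0.07, SE, adjusted p = 0.00228) and Wbp1l from 284–325 CPM in Vehicle to 374–428 CPM in GDF15 (log2 fold change 0.45 ± 0.07, SE, adjusted p = 0.00154). Both had smaller folds than Cyp17a1. On chromosome 6 Zxdc (90369478 to 90403490), Klf15 (90461043 to 90491803) and Aldh1l1 (90550768 to 90599171) rose. Klf15, a transcription factor of fasting and amino acid breakdown, stood at 123, 164, 92.8, 159.6 and 142 CPM in Vehicle and at 306, 254, 185, 215 and 218 CPM in GDF15. It had the largest fold of this run (log2 fold change 0.79 ± 0.15, SE, adjusted p = 0.0125), and Zxdc, a cofactor of class II gene transcription, was at 0.50 ± 0.10 (adjusted p = 0.0111).

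The 1 run of 3 that fell was on chromosome 6, with Gimap3 (48764464 to 48770851), Tmem176b (48833811 to 48845948) and Tmem176a (48841483 to 48845364). Tmem176a, a membrane protein also known from dendritic cells, went from 308–320.1 CPM in Vehicle to 251–279 CPM in GDF15 (log2 fold change -0.22 ± 0.05, SE, adjusted p = 0.027, lost without Vehicle 1 or GDF15 2 at up to 0.0862). Tmem176b was at -0.24 ± 0.06 (adjusted p = 0.0397, lost without Vehicle 1, 3, 4 or 5 or GDF15 2, 4 or 5 at up to 0.113); the 2 genes overlap in the annotation and can hold each other's reads. Gimap3, a GTPase of lymphocytes, was at -0.89 ± 0.23 (adjusted p = 0.0427, lost without Vehicle 1 or 4 or GDF15 1, 2, 4 or 5 at up to 0.117). Among the pairs were Mast3 and Arrdc2 on chromosome 8. Mast3, a kinase, went from 42.1–67.1 CPM in Vehicle to 75.9–96.9 CPM in GDF15 (log2 fold change 0.70 ± 0.11, SE, adjusted p = 0.00269) and Arrdc2, an arrestin-domain gene, from 11.9–19.2 CPM in Vehicle to 20.3–35.6 CPM in GDF15 (log2 fold change 1.02 ± 0.18, SE, adjusted p = 0.00523). Dgcr6 stood beside Prodh at 0.32 ± 0.07 (adjusted p = 0.027, lost without Vehicle 1 to 3 or GDF15 1 or 2 at up to 0.0858), Psmd9 beside Hpd at 0.52 ± 0.09 (adjusted p = 0.00473) and Rhbdd2 beside Por at 0.85 ± 0.19 (adjusted p = 0.0294, lost without Vehicle 1, 2, 3 or 5 or GDF15 2 at up to 0.088).

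PairFed livers show where the genes named above stand when food intake is limited without the hormone. In GDF15 vs PairFed 96 genes (0.782%) passed, and 9 with a term for the 5 deepest libraries, of which 4 are PairFed and none GDF15. Left-out libraries gave 171, 57, 47, 21 and 26 genes without PairFed 1 to 5, 30 without GDF15 1, 32 without GDF15 2 and 64 without GDF15 4. Of the 248 genes that rose against Vehicle 55 also passed as higher against PairFed, and 193 did not. Of the 108 that fell 4 also passed as lower, and 104 did not. The 2 comparisons share the GDF15 libraries, so these counts are a description and values are given side by side. Fkbp5 stood at 31.7, 32.6, 26.9, 41.7 and 31.3 CPM in PairFed 1 to 5 and differed between GDF15 and PairFed by 1.37 ± 0.16 log2 (SE, adjusted p = 0.000652). Gin1 stood at 8.57, 8.66, 7.15, 7.98 and 7.7 CPM in PairFed (0.97 ± 0.09, adjusted p = 2.13e-05). Both levels in PairFed were near those in Vehicle. Fkbp5, Gin1, Slc22a7, Prodh, Mast3 and Arrdc2 were among the 9 genes that passed with that term.

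Several metabolic genes also differed between GDF15 and PairFed before that term. Cps1 averaged 1550.2 CPM in PairFed and differed by 0.72 ± 0.09 (adjusted p = 0.000652). Sds averaged 240.5 CPM (1.08 ± 0.17, adjusted p = 0.00977), Lpin1 257 CPM (1.48 ± 0.26, adjusted p = 0.0253) and Zbtb16 35.8 CPM (1.46 ± 0.24, adjusted p = 0.0178). The means of these genes in PairFed lay nearer to Vehicle than to GDF15. Tsc22d3 averaged 50.7 CPM, below Vehicle (1.33 ± 0.15, adjusted p = 0.000491). Plin5 averaged 50.3 CPM (0.77 ± 0.13, adjusted p = 0.00977) and Ppargc1a 13.5 CPM (0.86 ± 0.17, adjusted p = 0.0253).

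For other genes PairFed stood between or beside GDF15. Per1 averaged 67.8 CPM in PairFed (0.22 ± 0.23, adjusted p = 0.749), Ciart 10.8 CPM (0.32 ± 0.45, adjusted p = 0.819) and Upp2 166 CPM (0.83 ± 0.45, adjusted p = 0.457). Fads1 averaged 1248 CPM (0.09 ± 0.09, adjusted p = 0.709), at the level of GDF15. Among genes that fell, Cxcl10 averaged 5.48 CPM in PairFed (-0.54 ± 0.18, adjusted p = 0.187), H2-DMa 7.67 CPM (-0.45 ± 0.15, adjusted p = 0.172) and Ubd 14.6 CPM (-0.95 ± 0.26, adjusted p = 0.116). Tap1 passed, with 47.6 CPM in PairFed (-0.39 ± 0.09, adjusted p = 0.0479). A p above the threshold does not show that GDF15 and PairFed were alike in these genes.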

How the data were processed

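The values deposited by the authors are estimated counts per gene symbol, whole numbers not scaled to depth, for 15302 genes in 15 liver libraries. Salmon, DESeq2 and the build mm10 are named without versions in the submitters' processing notes; the transcript set and strand setting were not given in the sources used here. Columns gave the group of a library but not its animal, so numbers within a group are names in table order.

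Genes were filtered with filterByExpr (count 10, total 15), scaled by TMM and tested with the quasi-likelihood test of edgeR 4.0.16 (R 4.3.3) in 1 fit of the 15 libraries, with Benjamini-Hochberg adjustment over the 12274 tested genes, which held 99.9% of counts. SE is the log2 fold change over the root of F. List scores are mean log2 CPM with a prior count of 2. Positions and promoters are from RefSeq GRCm38.p6, whose primary sequence is that of mm10; 15290 of 15302 symbols matched. The test was also run on simulated counts with a constant spread, no outlying libraries and planted changes of at least 2-fold. That run does not show how the test handles smaller changes or outlying libraries.

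Members and lists were chosen with earlier results of these data known. Genes eligible for naming were the 15 per direction with the smallest p at a mean log2 CPM of at least 1, up to 3 changed members of each list and direction, 5 per direction with the largest fold or change in CPM, changed neighbours, and a list of genes of interest. Further changed members of short lists (Klf9, Mfsd2a, Otc, Arg1, Slc7a2, Hgd, Haao, Dgat2, Apoc3, Cyp2c68, Gstt1, Gstk1, Spry4, H2-Eb1, Ctss and Ifit3b) were named after their values were seen. Some changed genes are not reported here. The 19 alternatives were other scalings, filters, tests (DESeq2 1.42.0, limma-voom 3.58.1), library sets, a depth term and leaving out each of the 10 libraries.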

Additional observations from a re-analysis of the deposited data

Results flagged for a closer look

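Among 332 pairs of a printed gene and a group of 5 libraries, 25 had a library farther from the others than Dixon's 95% limit allows; chance gives about 1 in 20. Vehicle 3 was the low library in 7 of them: Fkbp5 at 18.9 CPM (others 26.4 to 29.7), Cdip1 at 67.3 (77 to 80.6), Per1 at 17 (32.2 to 39.3), Tdo2 at 641 (869 to 969), Slc7a2 at 171 (263 to 287), Arhgap29 at 41.9 (45.9 to 47.5) and Selenbp2 at 15.9 (25.7 to 30.6). It was the high library for Zap70, at 6.97 CPM (3.92 to 4.6).

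GDF15 3 was low for Mt2 at 30.3 CPM (133 to 211), Tdo2 at 1072 (1348 to 1451) and Slc38a4 at 1011 (1288 to 1347). GDF15 1 was low for Ciita at 2.3 CPM (3.41 to 3.68), Cd74 at 100 (175 to 202), Ctss at 43.1 (63.7 to 73.9) and Clec4f at 51.7 (84.6 to 103). GDF15 5 was low for Igf1 at 243 CPM (286 to 304) and Gstt1 at 271 (306 to 319).

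Vehicle 1 was low for Ahcy at 800 CPM (995 to 1072), Sult1a1 at 195 (245 to 265) and Haao at 330 (383 to 401). Vehicle 4 was low for Clec4f at 56 CPM (74.4 to 79) and Ppip5k2 at 35.3 (41.5 to 42.2), and high for Apcs at 127 (96.5 to 104). Vehicle 2 was low for Cxcl16 at 17 CPM (22.8 to 24.7) and high for the liver's own Gdf15 transcript at 187 (48 to 65.3).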

How the results depend on the processing

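The counts of genes that rose, that fell and that passed against PairFed were 248, 108 and 96. DESeq2's Wald test gave 432, 210 and 259. A fit of only the 2 groups compared gave 147 and 47 against Vehicle. A term for the 5 deeper libraries gave 9 against PairFed. The libraries below the depth gap (10914914 to 12137462) gave 113, 38 and, with edgeR and a single PairFed library assumed to vary like the other groups, 0 against PairFed; 406 genes there had an unadjusted p under 0.05 and limma-voom called 1. Leaving out 1 library gave 109 to 332, 25 to 144 and 21 to 171. The other scalings, filters and limma-voom stayed within 1.5 times the main counts; upper-quartile scaling moved the median of all tested genes to -0.04. No paired analysis was possible because the columns carry no number that ties a library of one group to one of another. Of 149 printed genes that changed and were followed through the refits, 77 kept their call without each of the 10 libraries in turn. Of the 149, 63 kept it under every one of the 19 alternatives in which they were tested. A gene that a filter removed from an alternative was not counted as lost there. H2-DMa, Ciita, Cxcl10, Cd274 and Myo1g, counted among the 63, were each tested in 18. None of the 149 turned its sign. Losses under settings other than left-out libraries are not marked beside a gene. Cebpb, Tsc22d3, Per1, Klf15, Gnmt, Lipg, Csrnp1 and Slc7a2 are examples, lost in the libraries below the depth gap. Cebpb was also lost in the fit of only the 2 groups compared. For genes lost under other settings, the causes were not tested. List medians moved by more than the SD of the list scores of the GDF15 libraries in 25 of 1063 refits of a list. Leaving out 1 GDF15 library moves a group mean by only a part of that SD, so the count is a weak measure of stability. The shift of the gluconeogenesis median from 0.23 to 0.11 without GDF15 1 was not counted, for one. Few counts limit genes near 1 CPM, such as Cd8a, Cd3g and Ly6c2.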
